A study of Mus musculus with 8 samples.

Results

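The thioredoxin-interacting protein gene Txnip and 7 further genes of the glucose-responsive lipogenic programme, Arrdc4, Mlxipl, Pklr, Acly, Fasn, Acaca and Gpd1, were followed across islet cell types and after partial pancreatectomy (PPTx). The 8 genes were taken by name from the 24421 gene columns that all 8 count tables share, as ChREBP and targets that glucose is known to induce through it. Each of the 8 had at least 1 unique molecular identifier (UMI, a counted RNA molecule) in the kept cells. The cells came from islets of male C57BL/6J mice aged 8 weeks, captured singly in droplets, and made up 4 control and 4 PPTx samples. PPTx was a resection of about 50% of the pancreas on the splenic side 2 days before islet isolation, whereas control mice were not operated on at all, so no group received a sham operation. Both groups had free access to standard chow and no genetic alteration is stated for either, and each sample pooled the islets of 1 to 3 mice. Islets left after PPTx came from the part of the pancreas that was not removed, so the operation and the region of origin cannot be told apart. The islets were kept and dispersed in glucose-containing media, and a level here is that of cells after this handling.

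The carbohydrate response element binding protein ChREBP, encoded by Mlxipl, is a transcription factor that is activated when glucose metabolism rises and binds carbohydrate response elements as a heterodimer with Mlx. Its best known targets are Txnip, whose protein binds thioredoxin and restrains glucose uptake, the related alpha-arrestin Arrdc4, and the enzymes that turn glucose carbon into fat. In beta cells Txnip is among the genes that respond most readily to glucose, and a high level of its protein is known to favour beta-cell death.

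Carbohydrate response elements are built from paired E-box-like elements, so the sequence upstream of the start of each gene was searched for them. Promoters were taken from a RefSeq table on GRCm38.p6, the same assembly as the mm10 build of the count tables, as the 250 bases before each annotated start, and 7 of the 8 genes matched an entry. Gpd1 had none. The 4 promoters with a match are printed below 5′ to 3′ on the strand of the gene. Capitals mark a pair of such elements 5 bases apart (Txnip and Pklr) or the perfect E-box CACGTG (Arrdc4 and Mlxipl).
Txnip, chr3:96557707-96557956, plus strand: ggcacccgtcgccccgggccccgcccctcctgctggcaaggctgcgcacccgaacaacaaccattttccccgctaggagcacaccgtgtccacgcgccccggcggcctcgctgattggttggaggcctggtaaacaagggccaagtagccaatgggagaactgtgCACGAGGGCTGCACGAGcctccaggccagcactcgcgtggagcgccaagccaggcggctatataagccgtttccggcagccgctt
Pklr, downstream start, chr3:89136373-89136622, plus strand: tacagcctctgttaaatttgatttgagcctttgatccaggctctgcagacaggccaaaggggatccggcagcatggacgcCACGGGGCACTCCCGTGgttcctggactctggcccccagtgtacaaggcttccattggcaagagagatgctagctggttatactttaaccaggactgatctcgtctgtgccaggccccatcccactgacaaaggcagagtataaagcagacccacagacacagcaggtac
Arrdc4, chr7:68749239-68749488, minus strand: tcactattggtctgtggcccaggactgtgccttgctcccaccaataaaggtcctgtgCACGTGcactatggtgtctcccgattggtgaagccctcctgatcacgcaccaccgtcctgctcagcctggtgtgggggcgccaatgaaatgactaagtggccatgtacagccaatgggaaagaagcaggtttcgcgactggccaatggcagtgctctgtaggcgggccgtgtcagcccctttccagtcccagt
Mlxipl, upstream start, chr5:135089640-135089889, plus strand: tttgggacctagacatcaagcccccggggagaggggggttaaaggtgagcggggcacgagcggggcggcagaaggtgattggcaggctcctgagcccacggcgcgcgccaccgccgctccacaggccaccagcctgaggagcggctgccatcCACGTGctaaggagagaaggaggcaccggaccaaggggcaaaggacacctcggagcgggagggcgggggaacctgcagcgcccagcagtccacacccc

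In Txnip the pair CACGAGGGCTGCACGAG lies at bases -85 to -69 from the start. The pattern searched was CACGNG, 5 bases of any kind and CACGNG again, on both strands, which 15 of 32851 promoters of the table (0.0457%) held. In the downstream promoter of Pklr, the liver and red cell pyruvate kinase, the pair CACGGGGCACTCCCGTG lies at -170 to -154. The pattern was CACGNG, 5 bases of any kind and CNCGTG, on both strands, held by 13 of the 32851 promoters (0.0396%). The 2 patterns can match the same bases, and 21 of the 32851 promoters (0.0639%) held either. These shares describe how common the patterns are and do not test the matches. The E-box CACGTG, its own reverse complement, begins at -193 in Arrdc4 and at -98 in the upstream promoter of Mlxipl, and 6.02% of all promoters held it. CCAAT, searched on both strands and bound by the factor NF-Y, was found 2 times in Txnip, 6 times in Arrdc4, 3 times in Fasn and 1 time each in the printed Mlxipl and Pklr promoters, against at least 1 match in 33.8% of all promoters. None of the E-box patterns was found in the window of Acly, Fasn, Acaca, the downstream start of Mlxipl or the upstream start of Pklr, which says only that these letters are absent there. The windows of Acaca (chr11:84195188-84195437, plus strand) and Fasn (chr11:120824548-120824797, minus strand) lie inside the annotated genes, so the most upstream start of either was not searched. These matches are descriptions of sequence and not measured sites.

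Of 1240 cells in the tables, 1232 had the 100 to 3000 genes and 100 to 20000 UMIs required, 520 from control and 712 from PPTx samples, and 1 barcode occurred in more than 1 sample. The UMIs of kept cells summed to between 227439 and 1580152 per sample. Cells were classed by the hormone transcript that took at least 5% of their UMIs and at least 2 times the next hormone, and the 8 genes had no part in this. Ins-led cells numbered 940 (372 control, 568 PPTx), Ppy-led cells 129 (32 and 97), Gcg-led cells 114 (95 and 19) and Sst-led cells 13 (10 and 3). A further 35 cells had no leading hormone by this rule, 1 was led by Ghrl, and no doublet caller was run. Ins-led cells carried the beta-cell genes G6pc2, Ucn3 and Slc2a2 at 5538, 1474 and 606 CPM, but Mafa had only 2 UMIs in all of them and Pdx1 42. Ppy-led cells made up 6.0% ± 2.76 (SD, n = 4) of control cells and 13.4% ± 2.21 of PPTx cells. Gcg-led cells made up 15.9% ± 8.42 and 2.85% ± 1.89. Neither range overlapped between the groups (exact two-sided permutation p = 0.02857 for each, the smallest that 4 against 4 samples allow), so each class was described on its own.

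Levels are given as CPM, the UMIs of a gene per 1000000 UMIs of genes other than 8 hormone genes, over the cells of a class in a sample. Because 3′ UMI counts were made and hormone RNA was left out of the total, a level is compared across classes and samples and not between genes. Cells carry molecular identifiers, and intervals on pooled counts cover counting error only.

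Ins-led cells contained Txnip at 703 ± 107 CPM (SD, n = 8 samples, 1609 UMIs). The control samples 1 to 4 had 797, 632, 731 and 884 CPM, and the PPTx samples had 706, 634, 707 and 534 CPM. The ranges overlapped, with 1 of the 4 PPTx samples below all controls. Mlxipl, the gene of ChREBP itself, stood at 490, 632, 470 and 404 CPM in control and at 351, 354, 413 and 283 CPM in PPTx samples. Of the PPTx samples, 3 were below every control and the fourth was above the lowest control only. Acly, the ATP citrate lyase that makes cytosolic acetyl-CoA, was at 1594, 1539, 1754 and 1858 CPM in control and 1509, 1728, 1553 and 1793 CPM in PPTx samples, with the groups interleaved.

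Fatty acid synthase, Fasn, was at 112, 100.1, 111 and 100.1 CPM in control samples and at 138, 116, 116 and 128 CPM in PPTx samples. All 4 PPTx samples were above all 4 controls. Acetyl-CoA carboxylase, Acaca, averaged 27.9 ± 21.4 CPM in control and 34.8 ± 9.28 in PPTx samples, from 81 UMIs, and ranged from 0 to 50.0 in control samples. Glycerol-3-phosphate dehydrogenase, Gpd1, averaged 48.2 ± 13.1 and 36.2 ± 10.01 CPM, from 95 UMIs, with overlapping ranges. Arrdc4 averaged 16.3 ± 6.48 and 22.6 ± 8.50 CPM, from 46 UMIs. Pklr was represented by 5 UMIs in 940 Ins-led cells, 2 in control and 3 in PPTx samples, or 2.18 CPM with an exact Poisson 95% interval of 0.707 to 5.08.

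The first comparison asked whether these genes differed in Ins-led cells 2 days after PPTx. No member was called. With edgeR's quasi-likelihood test on sums per sample (adjusted p under 0.05, Benjamini-Hochberg over all genes), 17 of 5754 genes (0.295%) were called and none of the 6 members that passed its filter on low counts. Txnip had a log2 fold change of -0.21 ± 0.16 (SE, 95% interval -0.53 to 0.11, edgeR adjusted p = 0.72), which was -0.11 without control replicate 4 and -0.14 without PPTx replicate 4. Mlxipl had the lowest p of the members, with a log2 fold change of -0.46 ± 0.17 (interval -0.81 to -0.10), an unadjusted p of 0.0143 and an edgeR adjusted p of 0.376. Unadjusted p-values under 0.05 were found for 1 of the 6 members and for 9.61% of all genes tested. Acly had a log2 fold change of -0.02 (interval -0.30 to 0.27), the narrowest interval of the 6. The log2 fold change was 0.25 (interval -0.18 to 0.68) for Fasn, 0.18 (-0.62 to 0.98) for Acaca and -0.42 (-1.11 to 0.26) for Gpd1, all with edgeR adjusted p-values of 0.743 or above. The Fasn value was 0.14 with thinned cells. Gpd1 rested on few UMIs and went from -0.64 without PPTx replicate 3 to -0.14 without control replicate 3, and was -0.27 without PPTx replicate 2.

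Arrdc4 and Pklr did not pass the filter, and all 8 genes were therefore also compared by exact two-sided permutation of samples. Levels and shares of cells with a UMI at equal depth, described below, gave 16 tests with no adjustment. Shares without thinning, a share of cells with several Txnip UMIs and comparisons without 1 sample came on top of these, also unadjusted. Arrdc4 levels gave an exact p of 0.314 and Pklr levels 0.8286. The Arrdc4 difference of 6.22 CPM was 10.12 without PPTx replicate 1, 3.58 without PPTx replicate 2 and 3.99 without control replicate 3, with exact p-values of 0.0857 to 0.543 when 1 sample was left out. Over all 10 alternatives run the lowest Arrdc4 difference was 0.295 CPM. Txnip levels gave an exact p of 0.143 and Mlxipl levels 0.0571. Only the Fasn levels did not overlap (exact p = 0.02857), and 2.92% of the 4414 genes of at least 50 CPM were likewise higher in every PPTx sample than in every control, against 3.38% lower.

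**Figure D1:**
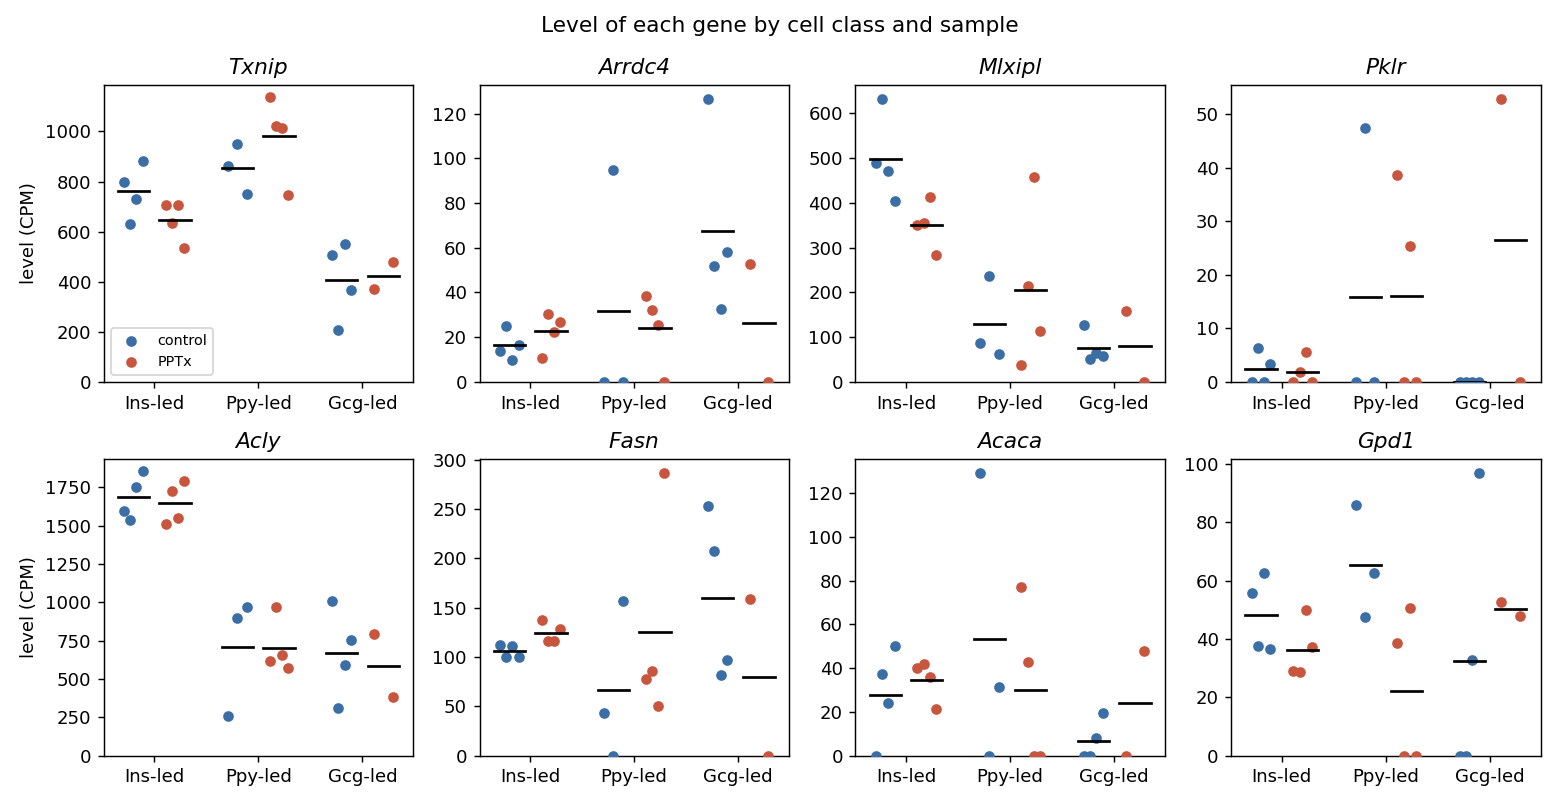
CPM of each of the 8 genes (vertical axes, separate scales from 0) in Ins-led, Ppy-led and Gcg-led cells, with 1 point per sample of at least 5 cells of the class (blue control, red PPTx) and a black line at the mean of the points. Of these 3 classes, Txnip has its highest mean in Ppy-led cells, in which samples lie between 745 and 1139, and Mlxipl and Acly in Ins-led cells.

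Per cell, depth was made equal by thinning each Ins-led cell to 900 non-hormone UMIs, which left out 21 control and 49 PPTx cells. A Txnip UMI remained in 305 of 870 cells. The share was 31.9%, 32.9%, 44.1% and 45.1% in the control samples and 27.8%, 32.5%, 31.4% and 32.4% in the PPTx samples, or 38.5% ± 7.07 against 31.0% ± 2.20 (SD, n = 4 each, exact p = 0.114). Leaving out 1 sample at a time gave differences from -9.65 percentage points without control replicate 1, the smallest sample (exact p = 0.02857), to -5.24 without control replicate 4 (exact p = 0.114), with exact p-values up to 0.257. The share with at least 3 Txnip UMIs differed by -1.63 points (exact p = 0.457). Unthinned, the shares were 55.0% ± 14.1 and 50.0% ± 5.43 (exact p = 0.514). The share with a Mlxipl UMI was 34.0%, 38.4%, 36.4% and 36.3% in control and 28.9%, 22.0%, 33.3% and 25.2% in PPTx samples, which did not overlap (exact p = 0.02857, unthinned 61.0% ± 11.9 against 48.0% ± 13.0, exact p = 0.2). The share with a Gpd1 UMI was 6.73% ± 1.59 in control and 3.995% ± 0.685 in PPTx samples, also without overlap, but from 43 cells. Arrdc4 was seen in 11 thinned cells, all from PPTx samples, a number at the level of single UMIs from which no change is read. Before thinning it was seen in both groups, in 3.10% ± 1.13 of control and 5.01% ± 1.91 of PPTx cells (exact p = 0.171). For Fasn the thinned shares were 10.4% ± 3.37 in control and 10.7% ± 2.585 in PPTx samples (exact p = 0.971). Shares lower in every PPTx sample were found for 2.56% and higher in every PPTx sample for 2.49% of the 4414 genes. Of the 4 members among these genes, Txnip, Mlxipl, Acly and Fasn, only Mlxipl was without overlap, and Gpd1 and Arrdc4 lie below 50 CPM, where no such share was computed.

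Txnip was uneven among Ins-led cells. Of thinned cells, between 54.9% and 72.2% per sample had no Txnip UMI, whereas between 3.60% and 10.6% had 3 or more, and single cells reached 10 UMIs at a sample mean of 0.562. The variance of its UMI count over the cells of a sample was 1.61 to 3.31 times the mean in the 8 samples. Averaged over samples this ratio was 2.37, against a median of 1.08 over 648 genes with a mean of at least 0.25 UMIs per thinned cell, which put Txnip at percentile 98.9 of these genes. This measure was added after the data were seen and is a description of the counts, in which cells of 1 sample share their library.

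**Figure D2:**
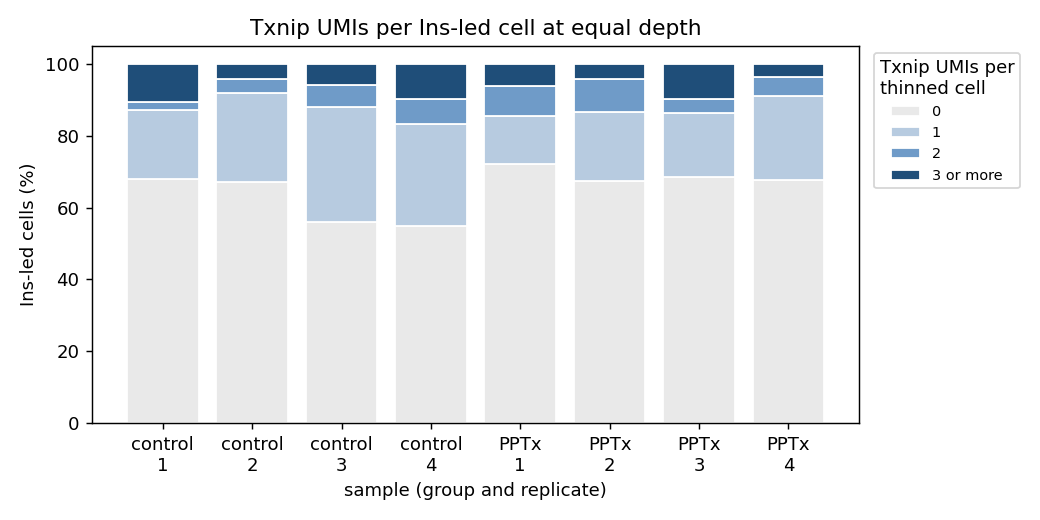
Share of Ins-led cells (vertical axis, percent) with 0, 1, 2 or 3 or more Txnip UMIs after thinning to 900 non-hormone UMIs, for each sample (horizontal axis, group and replicate). The lightest part, cells with no Txnip UMI, is smallest in control replicates 3 and 4 at 55.9% and 54.9%, and the darkest part is largest in control replicate 1 at 10.6%.

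The second comparison asked how the genes differ between hormone-defined classes of the same samples. Txnip was higher in Ppy-led and lower in Gcg-led cells than in Ins-led cells, Mlxipl and Acly were lower in both Ppy-led and Gcg-led cells than in Ins-led cells, and Fasn was not called in either. Txnip levels in Ppy-led cells were 861, 948 and 752 CPM in control samples 2 to 4 and 1139, 1021, 1015 and 745 CPM in PPTx samples 1 to 4. The level was above that of the Ins-led cells of the same sample in 6 of 7 samples, control replicate 4 being the exception with 884 CPM in Ins-led cells. In Gcg-led cells Txnip was at 506, 207, 549 and 369 CPM in control samples and at 370 and 479 CPM in PPTx samples 2 and 3. All of these were below the Ins-led cells of their own sample.

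With the sample as a block, Txnip was higher in Ppy-led than in Ins-led cells by a log2 fold change of 0.49 ± 0.14 (SE, n = 7 samples, edgeR adjusted p = 0.00258). It was lower in Gcg-led than in Ins-led cells by -0.62 ± 0.19 (n = 6 samples, edgeR adjusted p = 0.00428). The Gcg-led call was lost with thinned cells (edgeR adjusted p = 0.0653), with classes taken from the leading hormone alone (0.0949) and without control replicate 4 (0.0669). The Ppy-led call was lost without the filter on low counts (0.805), a setting in which the median log2 fold change of the same genes went from -0.03 to -0.40. Sst-led cells, too few for a test, had 13 Txnip UMIs in 13 cells, 577 CPM with an exact Poisson interval of 307 to 987. This interval holds the means over samples of Ins-led, Ppy-led and Gcg-led cells. The pooled Ppy-led value of 999.7 CPM lies above it.

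Mlxipl averaged 425 ± 107 CPM in Ins-led cells (SD, n = 8), 173 ± 146 in Ppy-led cells (n = 7) and 76.8 ± 56.8 in Gcg-led cells (n = 6). It was lower than in Ins-led cells by a log2 fold change of -1.12 ± 0.22 in Ppy-led cells (edgeR adjusted p = 5.69e-06) and of -2.60 ± 0.32 in Gcg-led cells (edgeR adjusted p = 2.45e-14). Ppy-led cells of PPTx replicate 3 stood apart at 457 CPM, above its Ins-led cells at 413. Acly averaged 1666 ± 133, 707 ± 260 and 641 ± 265 CPM in the same order, with log2 fold changes of -1.16 ± 0.14 (edgeR adjusted p = 1.22e-15) and -1.34 ± 0.17 (edgeR adjusted p = 2.03e-14). In the 13 Sst-led cells, with no test, Mlxipl was at 533 CPM (12 UMIs, exact Poisson interval 275 to 931) and Acly at 1688 (38 UMIs, interval 1194 to 2316), intervals that hold the means of the Ins-led cells. The calls of Mlxipl and Acly in Ppy-led and Gcg-led cells held in all alternatives run. Fasn ranged from 100.1 to 138, from 0 to 287 and from 0 to 253 CPM in the same order, with log2 fold changes of -0.34 (interval -1.003 to 0.32) and 0.08 (interval -0.67 to 0.82). The Ppy-led value of Fasn was -0.56 without PPTx replicate 4, -0.54 without control replicate 4 and -0.22 without control replicate 3, and the Gcg-led value turned below 0 without control replicate 1 or 2. Of the 4 members tested, 3 were called in each comparison, where 31.4% (Ppy-led) and 35.8% (Gcg-led) of all genes tested were called.

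**Figure D3:**
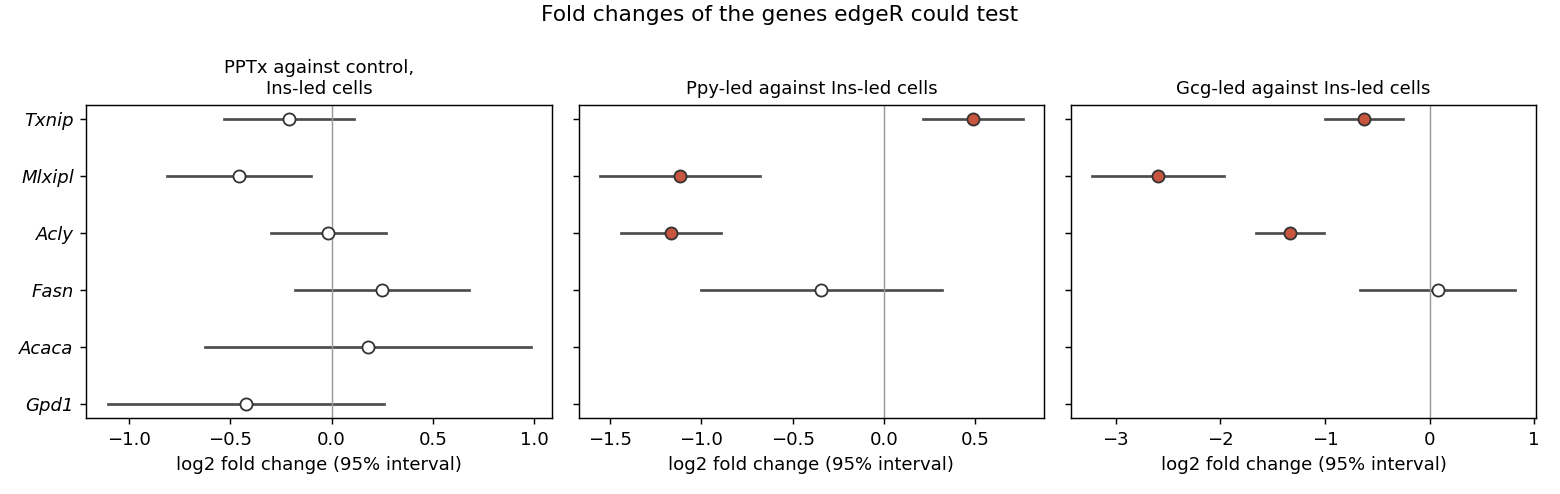
Log2 fold change (horizontal axis) with its 95% interval by edgeR for each member that passed the filter on low counts, in PPTx against control Ins-led cells, in Ppy-led against Ins-led cells and in Gcg-led against Ins-led cells, with red points for an adjusted p under 0.05. No point is red on the left, and Txnip is on opposite sides of 0 in the other two panels, at 0.49 and -0.62.

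Arrdc4, Pklr, Acaca and Gpd1 were too sparse for the comparison of classes. Arrdc4 had 8 UMIs in Ppy-led cells (28.6 CPM, exact Poisson interval 12.3 to 56.3) and 10 in Gcg-led cells (39.9, interval 19.1 to 73.4), against 20.0 CPM (interval 14.7 to 26.7) in Ins-led cells. Pklr had 4 UMIs in Ppy-led cells, 14.3 CPM (interval 3.89 to 36.6), and 1 in Gcg-led cells. Acaca was at 42.8 CPM (interval 22.1 to 74.8) in Ppy-led and 11.97 (interval 2.47 to 35.0) in Gcg-led cells, against 35.3 in Ins-led cells. The intervals of Gpd1 in the 3 classes overlapped, at 32.1, 43.9 and 41.4 CPM in Ppy-led, Gcg-led and Ins-led cells. These pooled values come from unequal samples and carry no test between classes.

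Genes listed for dissociation and stress differed between the classes, and whether through handling or cell type was not tested. The 9 genes of the list of dissociation and stress genes, among them the immediate early genes Fos, Jun and Egr1, summed to between 315 and 2027 CPM in Ins-led cells of the 8 samples, to between 2224 and 9752 in Ppy-led cells and to between 1869 and 7844 in Gcg-led cells. Of this list, 7 of 7 genes tested were called higher in Ppy-led and 6 of 6 in Gcg-led than in Ins-led cells, where 14.1% and 14.6% of all genes tested were called higher, and its part in the levels of Txnip was not tested. Ucn3, a beta-cell gene, was at 17.9 and 20.0 CPM in Ppy-led and Gcg-led cells, against 1474 in Ins-led cells. In Ins-led cells the markers of 5 other cell types were summed per sample. Ductal markers summed to between 430.2 and 473 CPM in control and between 394 and 847 in PPTx samples, from 3 and 4 of 5 genes detected, with Cftr at 0 in both groups and Sox9 at 0 in control. Acinar markers summed to between 12.5 and 126 CPM in control and between 22.2 and 384 in PPTx samples, from 6 and 7 of 7 genes. Immune markers, 4 of 7 detected in each group with Ptprc, Lyz2 and Tyrobp at 0, summed to between 42.0 and 109 and between 15.2 and 101.4 CPM. Endothelial markers, 3 of 6 detected in each group with Pecam1, Cdh5 and Flt1 at 0, summed to between 2.41 and 28.0 and between 5.34 and 21.7 CPM. Stellate markers, 5 of 5 detected in control and 3 in PPTx with Col1a2 and Dcn at 0, summed to between 0 and 19.3 and between 2.77 and 53.3 CPM. In Ppy-led cells, acinar markers did not overlap between groups, at 0 to 47.4 CPM in control (2 of 7 genes detected) and 76.1 to 401 in PPTx samples (7 of 7). Ductal markers there had medians of 981 and 1039 CPM in control and PPTx samples, against 442 and 536 in Ins-led and 233 and 277 in Gcg-led cells, from 3 of 5 genes in Ppy-led and 2 of 5 in Gcg-led cells, with Cftr at 0. Gcg-led cells had no acinar UMI in control and 0 to 121 CPM in PPTx samples. The immune, endothelial and stellate sums of Ppy-led and Gcg-led cells overlapped between groups and each reached 0 in at least 1 control sample, with Ptprc, Lyz2, Pecam1, Cdh5 and Col1a1 at 0. These sums cover all 8 samples, also those with fewer than 5 cells of a class, as do the sums of stress genes. The part of these markers in the comparisons of groups and classes was not tested. The share of Ppy in the UMIs of Ins-led cells was 0.0148% to 0.0924% in control and 0.102% to 0.296% in PPTx samples, and its part in the comparison of groups was not tested.

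The third comparison asked whether the PPTx difference of Ins-led cells differs from that of other hormone-led cells. In Ppy-led cells alone, 0 of 596 genes were called by edgeR (0.0%), 39 (6.54%) had an unadjusted p under 0.05, and DESeq2 also called 0. Txnip there had a log2 fold change of 0.26 ± 0.27 (interval -0.28 to 0.81, edgeR adjusted p = 0.916), which was 0.15 without control replicate 4, and Acly of 0.05 (interval -0.64 to 0.74). Over the 15 alternatives run the Txnip value lay between 0.09 and 0.45, and Txnip was called in none. Gcg-led cells had only 2 PPTx samples of at least 5 cells, with Txnip at 408 ± 154 CPM in the 4 control samples and 370 and 479 in those 2, fewer than the 3 per group set here for a test, and none was run. With Gcg-led, Ppy-led and Sst-led cells together as the other cells, the PPTx difference of Txnip was lower in Ins-led cells by a log2 value of -0.65 ± 0.23 (unadjusted p = 0.00507, edgeR adjusted p = 0.301), and -1.04 with thinned cells. For Mlxipl the value was -0.96 ± 0.39 (unadjusted p = 0.0139, edgeR adjusted p = 0.446), and -0.63 with thinned cells. Of 3968 genes tested, 6 were called (0.151%), and no member was among them. The mix of the other cells shifted from Gcg-led to Ppy-led between the groups. With Ppy-led cells alone as the other class, chosen after the data were seen, the values were -0.52 ± 0.28 for Txnip and -1.31 ± 0.55 for Mlxipl (edgeR adjusted p = 0.888 and 0.828), in a fit that called 0.0468% of 4272 genes.

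Over all cells summed regardless of class, Txnip was at 758 ± 122 CPM in control and 686 ± 92.3 in PPTx samples (log2 fold change -0.11, edgeR adjusted p = 0.883). This value was near 0 at -0.03, -0.05 and -0.05 without PPTx replicate 4, control replicate 1 and control replicate 4, and -0.20 without control replicate 2. Mlxipl was at 416 ± 86.9 and 319 ± 61.3 CPM (log2 fold change -0.33, edgeR adjusted p = 0.581, and -0.20 without control replicate 2). No member was called among 6737 genes tested, of which 29 (0.43%) were called. In these sums a change in the mix of classes and a change within a class cannot be told apart.

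Within Ins-led cells, 40 cells with at least 2 UMIs of 10 replication markers (10 control, 30 PPTx) were set against the other 900, a split made after the data were seen. Mlxipl was lower in the marked cells in 7 of 8 samples. It had 17 UMIs or 138 CPM in the marked cells and 424 CPM in the others, and over samples the mean was 142 ± 140 against 437 ± 109 (exact two-sided sign-flip p = 0.0156, the smallest possible being 0.00781). Txnip was at 348 CPM in the marked cells, from 43 UMIs, and at 721 in the others. It was lower in 7 of 8 samples, from which control replicate 4 departed with 1489 against 864 CPM in 4 marked cells (exact sign-flip p = 0.0547). The mean difference was -367 CPM. It was -509 without control replicate 4 (exact p = 0.0156) and -304 without control replicate 1 (exact p = 0.109). The 10 alternatives run for Txnip gave -556 to -304 CPM, with exact sign-flip p-values of 0.00781 to 0.109. Gpd1 had 4 UMIs in marked cells (exact sign-flip p = 0.0391), and Acly, Fasn and Acaca gave exact p-values of 0.148 or above. These were among 12 sign-flip tests with no adjustment. Marked cells had a median of 6816.5 UMIs and the others 6065, and 2 control samples held 1 marked cell each. Those 2 cells had no UMI of Mlxipl or Txnip and gave the 2 largest falls of either gene. Control replicates 3 and 4 held 4 marked cells each and PPTx replicate 4 held 3. The minimum of 5 cells per sum was not applied to this split. In the lowest and highest tertile of Ins-led cells by depth, likewise a split made after the data were seen, Txnip averaged 552 and 736 CPM, higher in the deep tertile in 6 of 8 samples (exact sign-flip p = 0.117).

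**Figure D4:**
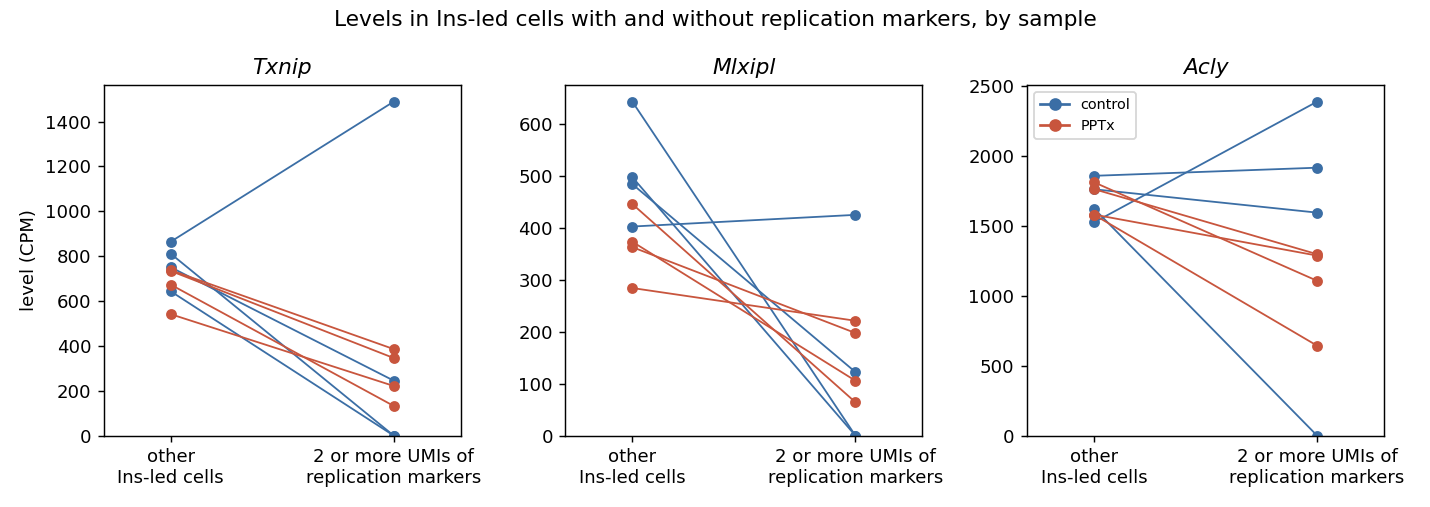
Levels of Txnip, Mlxipl and Acly (vertical axes, CPM, from 0) in Ins-led cells without and with at least 2 UMIs of replication markers (horizontal axis), with 1 line per sample, blue for control and red for PPTx. Lines of Txnip and Mlxipl fall in 7 of 8 samples, and control replicate 4 is the one that rises in both.

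The genes most like Txnip were then listed by rule among the 4414 genes of at least 50 CPM. Over the 8 samples' Ins-led cells, the 5 highest Pearson correlations with Txnip included those of Bbx (0.91), Xk (0.90), Slc24a2 (0.89) and Cdhr1 (0.87). The lowest were those of Ptges3 (-0.93), Fndc3b (-0.93), Caml (-0.90), Iars (-0.88) and Ptp4a2 (-0.86). The median over genes was 0.01, and with 8 points that share library and depth these are descriptions. Over thinned Ins-led cells within samples, averaged over the 8 samples for 4214 genes, the highest were Gpx3 (0.38), a secreted glutathione peroxidase, Chga (0.26), the granule protein chromogranin A, and Ocrl (0.22), each positive in 8 of 8 samples, followed by Rbp4 (0.21) and Ell2 (0.18) in 7 of 8. Mlxipl ranked 20 with 0.135 and was positive in 8 of 8 samples, whereas Fasn (0.01) and Acly (-0.03) were near the median of 0.00 over genes. Over the 8 samples, the correlation with Txnip was 0.36 for Mlxipl (rank 842 of the 4414 genes), 0.06 for Acly (rank 2032) and -0.44 for Fasn (rank 3951). In counts this sparse these correlations are weak, and cells of a sample share their library.

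The other genes of the pathway were taken from fixed lists. In PPTx against control Ins-led cells no gene of any of these lists was called. Among 10 Mondo and ChREBP factors 6 were tested, with a median log2 fold change of -0.16 against -0.01 over all genes tested. They include Mlx, the obligate partner of ChREBP, at -0.18 (edgeR adjusted p = 0.876), and Usf2, another E-box factor, at -0.13 (0.898). Of 17 other glucose-induced targets 9 were tested, with a median of -0.25. Slc2a2, the glucose transporter GLUT2, stood at -0.54 ± 0.15 (unadjusted p = 0.0013, edgeR adjusted p = 0.148), the stearoyl-CoA desaturase Scd2 at -0.25 (edgeR adjusted p = 0.689) and Mid1ip1, a regulator of acetyl-CoA carboxylase, at -0.52 (edgeR adjusted p = 0.536). Among 22 lipogenic and SREBP genes 11 were tested, with a median of -0.17, and Srebf1, the sterol and insulin responsive factor of lipogenesis, had -0.31 (edgeR adjusted p = 0.676). The fatty acid elongase Elovl5 had -0.33 (edgeR adjusted p = 0.592) and the mitochondrial citrate carrier Slc25a1 0.13 (edgeR adjusted p = 0.884). Of 21 genes of glucose entry and glycolysis 13 were tested, with a median of -0.0012. G6pc2, the islet glucose-6-phosphatase subunit, had -0.03, and the glycolytic enzymes Aldoa and Pkm -0.0012 and -0.0035 (edgeR adjusted p-values of 0.973 or above). Of 14 genes of the thioredoxin system 11 were tested, with a median of 0.19, and Txn1, thioredoxin itself, stood at 0.55 ± 0.18 (unadjusted p = 0.0058, edgeR adjusted p = 0.245). The peroxiredoxins Prdx1 and Prdx6 had 0.16 and 0.14 (edgeR adjusted p = 0.82 and 0.855). Of the further alpha-arrestins, Arrdc3 had 0.49 (edgeR adjusted p = 0.676) and Arrdc1 -0.14 (0.946). The replication gene Top2a had 0.42 (edgeR adjusted p = 0.835), and the stress genes Fos, Hspa1b and Hspa1a had 0.50, 0.52 and 0.79 (edgeR adjusted p = 0.772, 0.624 and 0.372).

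Between classes the same lists had calls, except the replication markers, of which none was tested. Of the genes of glucose entry and glycolysis, 7 of 11 tested were called lower in Ppy-led and 6 of 10 in Gcg-led than in Ins-led cells and none higher, where 17.4% and 21.1% of all genes tested were called lower. G6pc2 was lower by log2 values of -4.68 in both, and Pcx, pyruvate carboxylase, by -2.14 and -2.60. Slc2a2 was lower by -4.93 in Ppy-led and -4.57 in Gcg-led cells. Mid1ip1 was called higher, by 1.49 in Ppy-led and 1.31 in Gcg-led cells, and Scd2 lower in Ppy-led cells by -0.78. Elovl5 was lower by -1.47 and -2.92, the only call among the lipogenic and SREBP genes, of which 5 were tested in Ppy-led and 4 in Gcg-led cells. Of the thioredoxin system, Prdx4, the peroxiredoxin of the endoplasmic reticulum, was higher by 1.88 and 1.47, within 2 genes called higher and 3 lower of 9 tested in Ppy-led cells and 1 higher and 1 lower of 8 in Gcg-led cells. The shares of all genes called in either direction were 31.4% and 35.8%. Txn2, the mitochondrial thioredoxin, and Srxn1, sulfiredoxin, were lower in Ppy-led cells by -1.27 and -1.01, and Prdx6 in Gcg-led cells by -0.92. The stress genes of largest change were Jun (2.89), Egr1 (2.87) and Fos (2.79) in Ppy-led cells and Fos (3.08), Hspa1b (2.82) and Hspa1a (2.61) in Gcg-led cells. All of these had an edgeR adjusted p under 0.05.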

How the data were processed

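The deposited files hold UMI counts per gene symbol and cell, 1 table per sample, which the authors obtained by mapping reads on mm10 and running Cell Ranger. No normalization had been applied. Their methods name the ddSEQ system and the labels also name a Chromium kit. The median kept cell had 5543.5 UMIs.

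The study's limits on cells (genes 100 to 3000, UMIs 100 to 20000) were applied. Cells were classed by leading hormone and summed per sample and class (at least 5 cells). Ins1, Ins2, Iapp, Gcg, Sst, Ppy, Pyy and Ghrl were left out of totals and tests. The quasi-likelihood test of edgeR 4.0.16 (R 4.3.3, filterByExpr, TMM, Benjamini-Hochberg 0.05) was run on the sums, with the sample as a block between classes, where each group had 3 samples, a minimum set here. DESeq2 1.42.0 was an alternative. Thinning, levels, exact permutations and sign flips (all two-sided) used Python 3.11.15 and scipy 1.17.1. The edgeR fit was tested on simulated data.

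Members and gene lists were chosen with earlier results of these data known. Text names all members and, per list (for PPTx in Ins-led cells and between classes), up to 3 called genes of largest change, or otherwise the 3 of highest level, plus the 5 genes most and least like Txnip, of which 1 is not reported here. Alternatives were other scaling, filter, class rules, thinning, DESeq2, a replicate block and leaving out each replicate. The p-values of PPTx against control compare pooled islet samples and rest on the spread between these samples. Those between classes, of the third comparison and of the sign flips rest on how differences within a sample vary between samples.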

Additional observations from a re-analysis of the deposited data

Results flagged for a closer look

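Over 31 sets of 4 samples, each the level of 1 gene in 1 class and group, 1 sample stood far from the other 3. Fasn in Ppy-led cells of PPTx replicate 4 was at 287 CPM, against 50.8 to 86.0 in the other PPTx samples. It rests on 5 UMIs in 16 cells. Chance marks about 1 in 20 such sets.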

How the results depend on the processing

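Of 519 alternative values for 37 results, 459 kept their direction and side of the threshold, or stayed within 1.5 times for counts. In Ins-led cells 17 genes differed between PPTx and control. There were 65 without the filter on low counts, 10 with thinned cells, and 4 (without PPTx replicate 1) to 25 when 1 replicate was left out, with 9 without control replicate 1 and 8 without control replicate 2. In all cells 29 genes became 114 without the filter, 11 with thinned cells, and 11 to 32 with 1 replicate left out (11 without PPTx replicate 1, 18 without PPTx or control replicate 3, 12 and 14 without control replicates 2 and 4). Gcg-led against Ins-led cells gave 1286 genes without the filter, 312 thinned and 437 (without control replicate 3) to 874 with 1 replicate left out. Ppy-led against Ins-led cells gave 1510, 336 and 672 to 921. The difference of the PPTx effect between Ins-led and other hormone-led cells (6 genes) gave 1 gene with DESeq2, 3 without the filter, 11 with no margin on the leading hormone, 2 thinned, 2 with Ppy-led cells as the other class, and 3 (without PPTx or control replicate 3) to 10 (without control replicate 1) with 1 replicate left out. Fewer genes were tested with thinned cells and more without the filter. The cause of the other shifts was not tested.

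The Txnip difference of Gcg-led from Ins-led cells was -1.12 without the filter, -0.38 with no margin, -0.595 thinned, and -0.81 to -0.52 with 1 replicate left out. For Ppy-led cells it was 0.10 without the filter and 0.43 to 0.58 with 1 replicate left out. Without the filter the median of the genes of the main fit shifted from -0.09 to -0.51 in Gcg-led and from -0.03 to -0.40 in Ppy-led cells. The share of cells with Txnip differed by -9.65 to -5.24 points with 1 replicate left out.

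Directions turned where the value was near 0 or the UMIs were few. Acly in PPTx Ins-led cells was 0.0114 without the filter and -0.0624 to 0.0459 with 1 replicate left out (above 0 without PPTx replicates 1 or 3 or control replicates 3 or 4), and Acaca -0.0391 (without control replicate 3) to 0.59 (without control replicate 4). Over all cells the same ranges were -0.0343 to 0.088 for Acly and -0.062 to 0.53 for Acaca, turned by PPTx replicate 4 or control replicate 2 (Acly) and control replicate 3 (Acaca), and for Acly in Ppy-led cells -0.29 to 0.37, below 0 without replicate 2 of either group. Fasn in Gcg-led against Ins-led cells was -0.0099 with RLE scaling, -0.32 without the filter and -0.0927 to 0.30 with 1 replicate left out. For the difference of the PPTx effect between Ins-led and other cells, Acly was -0.19 thinned, -0.18 against Ppy-led cells alone and -0.0818 to 0.24 with 1 replicate left out (below 0 without PPTx replicates 3 or 4 or control replicate 4), and Fasn -0.12 against Ppy-led cells alone. Pklr ranged from -1.76 to 0.75 CPM, above 0 without control replicate 2 or PPTx replicates 1 or 4.

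The main tests of PPTx against control did not pair samples by the replicate numbers of the labels. Deviations of same-numbered samples correlated weakly but always above 0, at 0.0319 to 0.158, against -0.121 to 0.0714 for the other pairs. Of the 8 samples, 7 correlated best with their own number. Whether same-numbered samples share a factor was not tested. With a replicate block 43 genes were called in Ins-led cells, 58 in all cells and 3 in Ppy-led cells, and no member was called. Between 71497 and 524935 non-hormone UMIs per sample stood behind the Ins-led sums, so Arrdc4, Pklr and Acaca are limited by counting error. PPTx against control in Gcg-led and Sst-led cells, and Sst-led against Ins-led cells, were not run, since at least 3 samples per group were required here.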

Other observations

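The 35 cells without a leading hormone, 11 from control and 24 from PPTx samples, had 83 Txnip UMIs or 1013 CPM (exact Poisson interval 807 to 1255), 28 Mlxipl UMIs or 342 CPM and 69 Acly UMIs or 842 CPM. Of these cells 22 had a second hormone too close to the first and 13 had no hormone at 5% of their UMIs.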
